A study of Mus musculus with 12 samples.

Results

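The inflammatory CC chemokines described here are 8 secreted proteins encoded by Ccl2, Ccl3, Ccl4, Ccl5, Ccl6, Ccl7, Ccl9 and Ccl12. They were taken by gene symbol from the main category of the array annotation, and each was measured by 1 feature, so they make up 8 of the 27296 genes tested. CC chemokines carry a pair of adjacent cysteines and draw leukocytes towards a site of inflammation through G protein-coupled receptors on the responding cell. Macrophages are a major source of them, and bacterial lipopolysaccharide (LPS), sensed through Tlr4, is a classical inducer that acts through NF-kB, AP-1 and interferon regulatory factors. Ccl2, Ccl7 and Ccl12 are ligands of Ccr2 and attract monocytes. Ccl3, Ccl4 and Ccl5 attract T cells and monocytes, and Ccl3 and Ccl5 act on Ccr1. In the mouse, Ccl6 and Ccl9 are ligands of Ccr1.

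RNA came from 6 clones of MH-S, a line of mouse alveolar macrophages, on 12 Affymetrix Mouse Gene 2.1 ST arrays. Clones 69, 73 and 83 are labelled as having high activity of IL-4Ra, the alpha chain of the interleukin-4 receptor, and clones 7, 29 and 75 as having low activity. The sources used here do not say how this activity was measured. For each clone, RNA was profiled after 16 h with 0.2 µg/ml LPS of Salmonella Minnesota R595 (Re) and after 16 h without it, which gave 4 groups of 3 arrays: high clones with LPS, high clones unstimulated, low clones with LPS and low clones unstimulated. All clones belong to 1 cell line, so the p-values measure the spread between its clones. Values below are levels on the log2 scale of RMA, the authors' normalization, and values of single clones are always given in the order 69, 73, 83 for the high clones and 7, 29, 75 for the low clones. A level of one gene cannot be set against that of another on this scale. A gene is called changed at an adjusted p under 0.05 in limma, with Benjamini-Hochberg adjustment over all 27296 genes.

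The arrays of a group correlated at 0.9902 to 0.9945 over all main features. The LPS array of low clone 75 had the lowest SD of log2 levels, 2.41, where the highest of any array was 2.48. It also had the lowest median of intron control features, 4.5, where the highest was 4.82. Of 8 macrophage markers, 6 (Adgre1, Csf1r, Cd68, Fcgr1, Lyz2, Cd14) lay above the 95th percentile of the arrays' intron control features on every array, while Itgam did so on none. Of the 8 measured markers of alveolar macrophages, 0 did so on every array and 7 (Siglecf, Marco, Pparg, Car4, Chil3, Krt79, Fabp1) did so on none, so most defining markers of the labelled cell type were at the level of control features. Neutrophil and lymphocyte markers, 8 each, were above that percentile on 0 arrays. The mean level of the neutrophil list was 4.09 to 4.18 in high clones with LPS, 3.82 to 3.86 in high clones unstimulated, 4.01 to 4.06 in low clones with LPS and 3.77 to 3.91 in low clones unstimulated. This mean was therefore higher with LPS, at the level of control features. S100a8, Ly6g and Camp were higher with LPS in every clone, and the other genes of the list in some clones only. In the high clones S100a8 had 5.66, 4.56 and 4.75 with LPS, against 3.88, 3.70 and 3.93 unstimulated. In the low clones S100a8 had 4.21, 4.19 and 4.30 with LPS, against 3.55, 3.48 and 3.14 unstimulated. In the same clones S100a9 had 3.28, 3.26 and 3.56 with LPS, against 3.66, 3.41 and 3.61 unstimulated. Of 8 fibroblast and epithelial markers 1, Col1a1, was above the percentile on every array, and their mean level was 4.22 to 4.31 in high clones with LPS, 4.18 to 4.28 in high clones unstimulated, 4.27 to 4.84 in low clones with LPS and 4.16 to 4.21 in low clones unstimulated. Dcn, a fibroblast gene on that list, had 6.20, 4.22 and 7.50 in low clones with LPS, against 3.41, 3.45 and 3.23 unstimulated. Its high clones had 4.03, 3.49 and 3.49 with LPS, against 3.32, 3.28 and 3.54 unstimulated. Col1a1 was higher with LPS in every clone. Its low clones had 8.17, 7.97 and 8.67 with LPS, against 7.93, 7.93 and 7.90 unstimulated. Its high clones had 8.01, 8.16 and 8.21 with LPS, against 7.94, 8.01 and 7.85 unstimulated. Col1a2, also on that list, was mixed, with 4.40, 4.22 and 4.01 in low clones with LPS, against 4.24, 3.90 and 4.09 unstimulated. Epcam, also listed, was lower with LPS in every clone. Its low clones had 3.73, 3.71 and 3.71 with LPS, against 3.80, 3.82 and 3.87 unstimulated. Of 8 monocyte and dendritic cell markers 1, Cd209a, was above the percentile on every array, and their mean level was 4.78 to 5.17 in high clones with LPS, 4.82 to 4.98 in high clones unstimulated, 4.80 to 5.15 in low clones with LPS and 4.68 to 4.82 in low clones unstimulated. Ly6c2, a monocyte gene on that list, had 7.19, 4.65 and 4.19 with LPS in the high clones, against 5.02, 4.47 and 4.36 unstimulated. It had 5.30, 6.95 and 4.77 with LPS in the low clones, against 4.29, 4.33 and 3.87 unstimulated, so it was higher with LPS in all but clone 83. Zbtb46, also on that list, was lower with LPS in every clone. It had 5.32, 4.98 and 5.16 with LPS in the high clones, against 5.94, 5.32 and 5.39 unstimulated. Its low clones had 5.27, 4.94 and 5.03 with LPS, against 5.80, 5.20 and 5.41 unstimulated. The part of any of these lists in the chemokine values was not tested. Because RNA was pooled from many cells, fewer cells making a transcript and less transcript per cell cannot be told apart.

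With LPS, 6 of the 8 chemokines rose over all clones by limma: Ccl5, Ccl7, Ccl2, Ccl4, Ccl6 and Ccl9, with 0 lower. Of all genes tested, 5.72% were called higher and 6.72% lower. With each clone's 2 arrays treated as a block 7 rose, against 7.16% of all genes. The median change of the 8 chemokines was 0.70 log2, beside -0.01 over all genes. Ccl5 changed most in size, 3.07-fold, and Ccl3 least, 1.05-fold. On every LPS array 2 of 8, Ccl2 and Ccl5, were above all unstimulated arrays, a pattern held by 3.02% of all genes. The 6 that rose were higher with LPS in 6 of 6 clones, and Ccl3 and Ccl12 in 5 of 6.

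**Figure D1:**
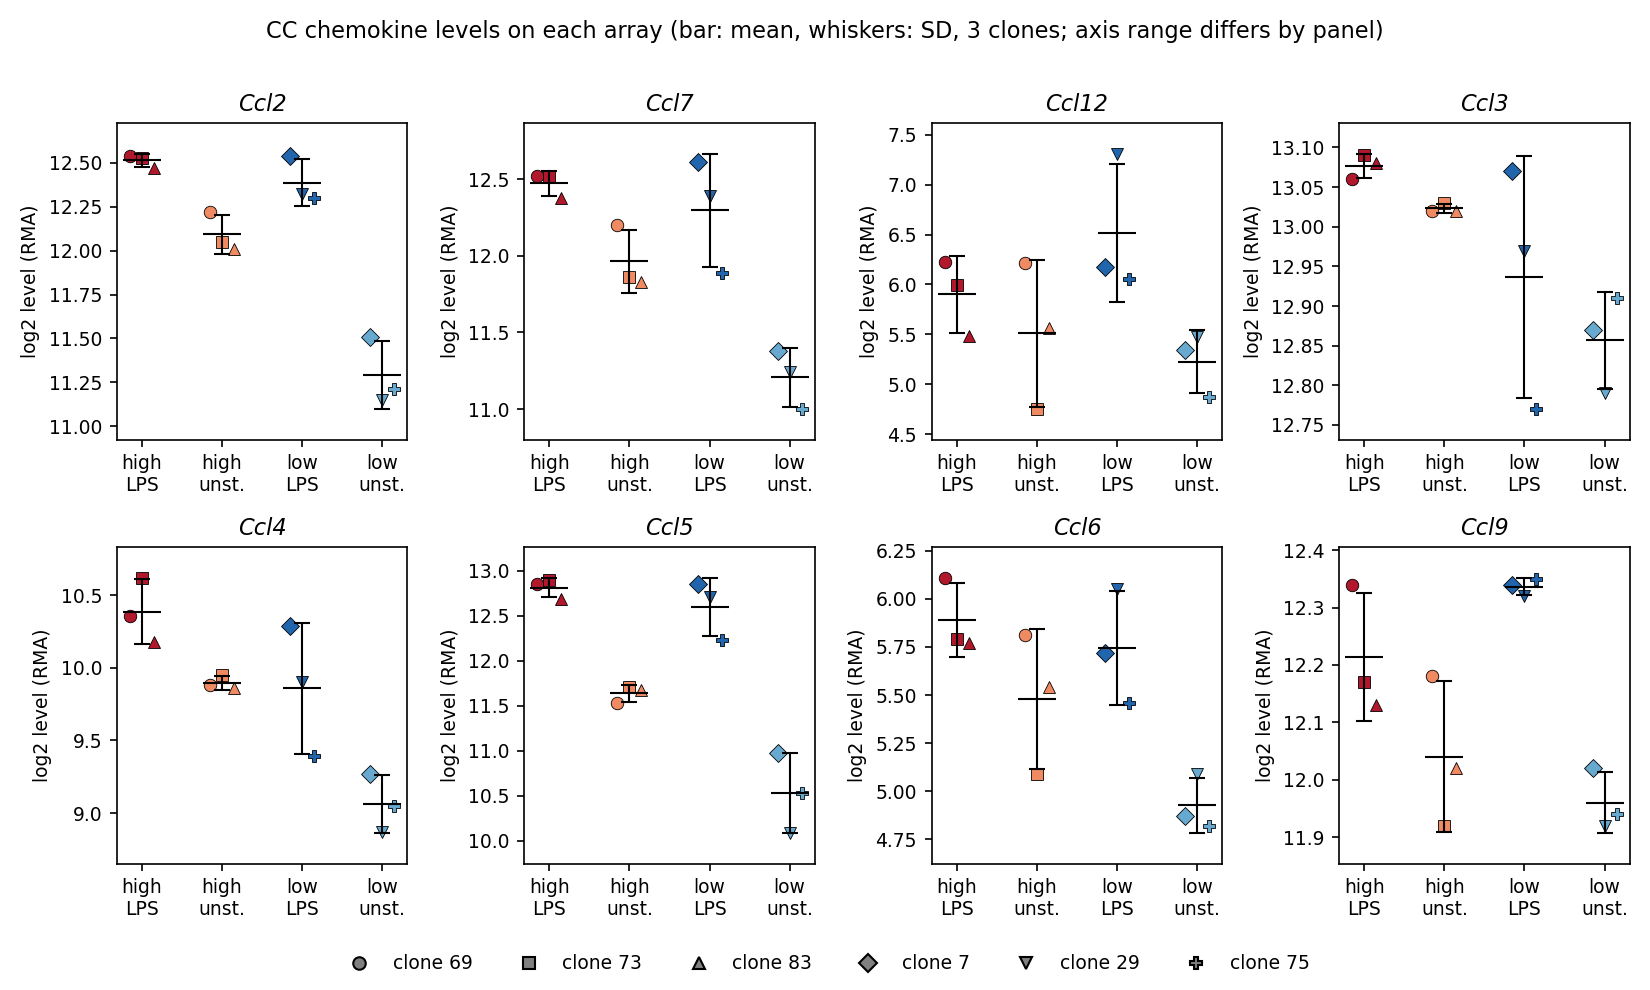
Log2 level (RMA) of each CC chemokine on every array, by group (unst.: unstimulated), with the mean (bar) and SD (whiskers) of 3 clones; the vertical range differs between panels. For Ccl2, Ccl4, Ccl5 and Ccl7 the 3 unstimulated low clones lie below all other arrays, and Ccl3 spans only 12.77 to 13.09.

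Ccl2, the archetypal monocyte attractant, stood at 12.54, 12.53 and 12.47 with LPS in the high clones, against 12.22, 12.05 and 12.01 unstimulated. In the low clones it stood at 12.54, 12.32 and 12.30 with LPS, against 11.51, 11.15 and 11.21 unstimulated. The LPS arrays of either phenotype lay above every unstimulated array, and the unstimulated low clones were lowest. Over all clones it rose by 0.76 ± 0.08 log2 (SE), or 1.69-fold, with a limma adjusted p of 4.79e-05. Within the low clones the rise was 1.10 ± 0.12 log2 (limma adjusted p = 8.42e-05). The change in the high clones was 0.42 ± 0.12 log2, with a limma adjusted p of 0.0709, and of 0.0263 with the clone block.

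Ccl7 lies next to Ccl2 on chromosome 11 and binds Ccr2 as well. It stood at 12.52, 12.52 and 12.38 with LPS in the high clones, against 12.20, 11.86 and 11.83 unstimulated. Its low clones had 12.61, 12.39 and 11.89 with LPS, against 11.38, 11.24 and 11 unstimulated. The groups were separate within each phenotype, but the LPS array of low clone 75 lay below the unstimulated array of high clone 69. The rise was 0.80 ± 0.12 log2 over all clones (limma adjusted p = 0.000631) and 1.09 ± 0.17 log2 in the low clones (adjusted p = 0.00154). In the high clones the change of 0.51 ± 0.17 log2 had a limma adjusted p of 0.146, which became 0.0253 with the clone block and 0.0472 without clone 75.

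Ccl12, a Ccr2 ligand described in the mouse, was near the control level. It exceeded the 95th percentile of intron features on 1 of 12 arrays and their median on 11. Its levels were 6.23, 5.99 and 5.48 with LPS in the high clones, against 6.22, 4.75 and 5.56 unstimulated, which overlapped. The low clones gave 6.18, 7.31 and 6.05 with LPS, against 5.34, 5.47 and 4.87 unstimulated, without overlap. Its fold was large but its spread wide: the change of 0.84 ± 0.26 log2 over all clones had a limma adjusted p of 0.0553, and that of 1.29 ± 0.37 log2 in the low clones one of 0.053. Both were called with the clone block, at adjusted p = 0.0138 and 0.0133. Both were also called without clone 69 (0.0455 and 0.0373), and the low-clone change without clone 73 (0.0416).

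Ccl5, which recruits T cells and monocytes, had the largest response and was the only one of the 8 chemokines called in both phenotypes by the fit without a clone term. It stood at 12.85, 12.90 and 12.69 with LPS in the high clones, against 11.53, 11.71 and 11.68 unstimulated. The low clones had 12.85, 12.71 and 12.23 with LPS, against 10.98, 10.09 and 10.53 unstimulated. All 6 LPS arrays lay above all 6 unstimulated ones. Over all clones it rose by 1.62 ± 0.14 log2 (limma adjusted p = 8.13e-06). The rise was 1.17 ± 0.20 log2 in the high clones, or 2.26-fold, and 2.06 ± 0.20 log2 in the low clones, or 4.18-fold (limma adjusted p = 0.00534 and 3.81e-05). The call in the high clones was lost without clone 69 (adjusted p = 0.076) or clone 73 (0.0671).

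Ccl4, which draws T cells and monocytes, stood at 10.36, 10.62 and 10.18 with LPS in the high clones, against 9.88, 9.95 and 9.86 unstimulated. Across low clones 7, 29 and 75 the levels were 10.29, 9.90 and 9.39 with LPS, against 9.27, 8.87 and 9.05 unstimulated. The groups did not overlap within a phenotype, although the change of low clone 75 was 0.34 log2 while clones 7 and 29 changed by 1.02 and 1.03. The rise over all clones was 0.64 ± 0.14 log2 (limma adjusted p = 0.00658). In the low clones it was 0.80 ± 0.19 log2 (adjusted p = 0.0224), a call lost without clone 7 (0.0814) or clone 29 (0.182). The high clones changed by 0.49 ± 0.19 log2, with an adjusted p of 0.228.

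Ccl3, a classical Ccr1 ligand, had 13.06, 13.09 and 13.08 with LPS in the high clones, against 13.02, 13.03 and 13.02 unstimulated. The low clones had 13.07, 12.97 and 12.77 with LPS, against 12.87, 12.79 and 12.91 unstimulated. The LPS arrays were narrowly the higher ones in the high clones, and the groups of the low clones overlapped. Its change over all clones was 0.07 ± 0.07 log2 (limma adjusted p = 0.648). On 4 of 12 arrays Ccl3 was the highest of all main features, and on the others it lay at most 0.41 log2 below the highest, whose level was 13.02 to 13.2. The smallest gap to the highest feature was 0.19 log2 for Ccl5, 0.46 for Ccl7, 0.52 for Ccl2 and 0.72 for Ccl9, against 2.47 for Ccl4. The part of this nearness to the top of the scale in the size of the changes was not tested.

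Ccl6 and Ccl9 are neighbouring genes whose products attract Ccr1-bearing myeloid cells in the mouse. Ccl6 had 6.11, 5.79 and 5.77 with LPS in the high clones, against 5.81, 5.09 and 5.54 unstimulated. The low clones showed 5.72, 6.05 and 5.46 with LPS, against 4.87, 5.09 and 4.82 unstimulated. LPS and unstimulated arrays overlapped in the high clones and not in the low clones. On 0 of 12 arrays did Ccl6 exceed the 95th percentile of intron features, although it exceeded their median on 12. It rose by 0.61 ± 0.13 log2 over all clones (limma adjusted p = 0.00753) and by 0.82 ± 0.19 log2 in the low clones (0.0169). The call in the low clones was lost without clone 7 (adjusted p = 0.126), clone 29 (0.0905) or clone 75 (0.0558). The change of 0.41 ± 0.19 log2 in the high clones had an adjusted p of 0.318.

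Ccl9 stood at 12.34, 12.17 and 12.13 with LPS in the high clones, against 12.18, 11.92 and 12.02 unstimulated. Low clones had 12.34, 12.32 and 12.35 with LPS, against 12.02, 11.92 and 11.94 unstimulated. Its low clones were tightly grouped and separated by LPS, whereas the groups of the high clones overlapped. The rise was small, 1.21-fold over all clones (0.28 ± 0.07 log2, limma adjusted p = 0.0207) and 1.30-fold in the low clones (0.38 ± 0.10 log2, adjusted p = 0.0356). In the high clones the change was 0.17 ± 0.10 log2 (adjusted p = 0.469). The call over all clones was lost without clone 7 (adjusted p = 0.066), clone 29 (0.0834), clone 75 (0.0668), clone 73 (0.069) or clone 83 (0.0541). That in the low clones was lost without clone 7 (0.149), clone 29 (0.185), clone 75 (0.178) or clone 83 (0.0591).

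Counted by phenotype, 1 of the 8 chemokines rose in the high clones (Ccl5), where 1.82% of all genes were called higher and 2.06% lower. With the clone block 3 did (Ccl2, Ccl5 and Ccl7), against 3.04% of all genes. In the low clones 6 rose and 0 fell, where 3.59% of all genes were called higher and 4.13% lower, and 7 rose with the clone block, against 4.77%. Separation without overlap was seen for 5 of 8 in the high clones (Ccl2, Ccl3, Ccl4, Ccl5 and Ccl7), a pattern held by 9.18% of all genes. In the low clones it was seen for 7 of 8, all but Ccl3, against 11.8% of all genes. In the authors' deposited table, which pools all clones, the fold of LPS over unstimulated arrays on untransformed values was 2.86 for Ccl5, 1.83 for Ccl12, 1.69 for Ccl7 and 1.63 for Ccl2. The same deposited table of the authors gave 1.55 for Ccl4, 1.498 for Ccl6, 1.21 for Ccl9 and 1.05 for Ccl3.

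The 8 genes lie in clusters on chromosome 11, in mm10 coordinates of the array annotation. Ccl2 (82035571 to 82037453), Ccl7 (82045712 to 82047525) and Ccl12 (82101845 to 82103400) are on the plus strand. After a gap of 1422.38 kb follow Ccl5 (83525778 to 83530518), Ccl9 (83572917 to 83578636), Ccl6 (83587882 to 83593087) and Ccl3 (83647843 to 83649378), all on the minus strand, and Ccl4 (83662584 to 83664683) on the plus strand. The annotation marks each of the 8 features as matching its gene uniquely.

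The 250 bases before the annotated start were available from RefSeq (GRCm38.p6) for 4 of the 8 chemokines, Ccl9, Ccl12, Ccl3 and Ccl6. All 4 are shown. Over all clones, the fit without a clone term called Ccl9 and Ccl6, side by side on the chromosome, with LPS, but neither Ccl3 nor Ccl12. Capitals mark matches, on either strand, to the NF-kB consensus, to the AP-1 site TGANTCA, to the interferon-stimulated response element (GAAA, any 2 bases, GAAA) or to the TATA box TATAAA. Ccl9 is read on the minus strand of chr11:83578637-83578886, Ccl12 on the plus strand of chr11:82101595-82101844, Ccl3 on the minus strand of chr11:83649379-83649628 and Ccl6 on the minus strand of chr11:83593088-83593337.
Ccl9: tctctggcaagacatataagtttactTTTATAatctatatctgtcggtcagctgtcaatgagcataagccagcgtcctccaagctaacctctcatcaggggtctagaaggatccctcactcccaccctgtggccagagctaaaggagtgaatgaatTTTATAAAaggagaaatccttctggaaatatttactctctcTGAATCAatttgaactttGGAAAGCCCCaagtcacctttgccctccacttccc
Ccl12: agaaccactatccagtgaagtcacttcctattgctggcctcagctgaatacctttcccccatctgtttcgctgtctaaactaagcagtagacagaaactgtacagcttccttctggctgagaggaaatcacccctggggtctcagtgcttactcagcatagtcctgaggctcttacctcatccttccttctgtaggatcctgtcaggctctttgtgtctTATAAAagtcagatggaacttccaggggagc
Ccl3: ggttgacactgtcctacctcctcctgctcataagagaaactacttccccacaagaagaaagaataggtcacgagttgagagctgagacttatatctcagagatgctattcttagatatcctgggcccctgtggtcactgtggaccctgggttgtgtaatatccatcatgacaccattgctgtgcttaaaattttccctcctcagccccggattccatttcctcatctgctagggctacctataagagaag
Ccl6: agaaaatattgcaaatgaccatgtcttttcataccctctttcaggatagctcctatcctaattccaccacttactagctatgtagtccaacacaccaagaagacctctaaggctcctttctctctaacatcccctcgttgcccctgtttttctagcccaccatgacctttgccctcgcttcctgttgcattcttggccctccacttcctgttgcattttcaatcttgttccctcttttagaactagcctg
In Ccl9 the NF-kB match lies 35 to 26 bases before the start on the opposite strand and the AP-1 match 53 to 47 bases before it. Its TATA box matches lie 224 to 219 bases before the start and, overlapping on both strands, 94 to 87 bases before it. Ccl12 holds a TATA box match 31 to 26 bases before the start. In Ccl3 and Ccl6 these letters are not in the window. Of all 32851 promoters of this length, 7.25% hold the NF-kB consensus, 6.75% the AP-1 site, 2.98% the interferon-stimulated response element and 12.4% the TATA box, so a match is a description of the sequence and not a site shown to act.

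Without LPS, Ccl2 and Ccl5 were higher in high than in low clones, with 0 of the 8 lower, where 0.92% of all genes were called higher and 0.216% lower. The median difference of the 8 was 0.65 log2, beside 0 over all genes. Ccl2 averaged 12.09 ± 0.11 in high clones and 11.29 ± 0.19 in low clones (SD, n = 3 each), a 1.75-fold difference (0.80 ± 0.12 log2, SE; limma adjusted p = 0.00695). Ccl5 averaged 11.64 ± 0.10 in high clones and 10.53 ± 0.45 in low clones, a 2.15-fold difference (1.11 ± 0.20 log2; limma adjusted p = 0.0207). For both genes every high clone lay above every low clone. The call of Ccl2 was lost without clone 29 (0.73 log2, adjusted p = 0.0627). That of Ccl5 was lost without clone 29 (0.88 log2, adjusted p = 0.103), clone 75 (0.0533), clone 69 (0.0666), clone 73 (0.0882) or clone 83 (0.104), and among the fits without a clone it held only without clone 7.

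Ccl4 and Ccl7 showed differences of similar size that missed the threshold. Ccl4 averaged 9.90 ± 0.05 in high clones and 9.06 ± 0.20 in low clones, a difference of 0.83 ± 0.19 log2 (limma adjusted p = 0.0628, and 0.0443 without clone 7). Ccl7 averaged 11.96 ± 0.21 in high clones and 11.21 ± 0.19 in low clones, a difference of 0.76 ± 0.17 log2 (limma adjusted p = 0.0585, and 0.0438 with the clone block). With that block 3 of 8 were called, against 0.978% of all genes. Groups did not overlap for Ccl2, Ccl3, Ccl4, Ccl5 and Ccl7, 5 of 8, a pattern held by 7.97% of all genes. Ccl3 averaged 13.02 ± 0.01 in high clones and 12.86 ± 0.06 in low clones, a difference of 0.17 log2 (95% interval -0.04 to 0.38; adjusted p = 0.61).

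The other chemokines gave wider or smaller differences at rest. Ccl6 averaged 5.48 ± 0.36 in high clones and 4.93 ± 0.14 in low clones (0.55 log2, 95% interval 0.15 to 0.96; limma adjusted p = 0.254). High clone 73 and low clone 29 had the same value, 5.09. Ccl9 averaged 12.04 ± 0.13 in high clones and 11.96 ± 0.05 in low clones, and its interval was -0.14 to 0.30 log2 (adjusted p = 0.869). Ccl12 averaged 5.51 ± 0.74 in high clones and 5.23 ± 0.32 in low clones, with an interval of -0.52 to 1.09 log2 (adjusted p = 0.877).

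**Figure D2:**
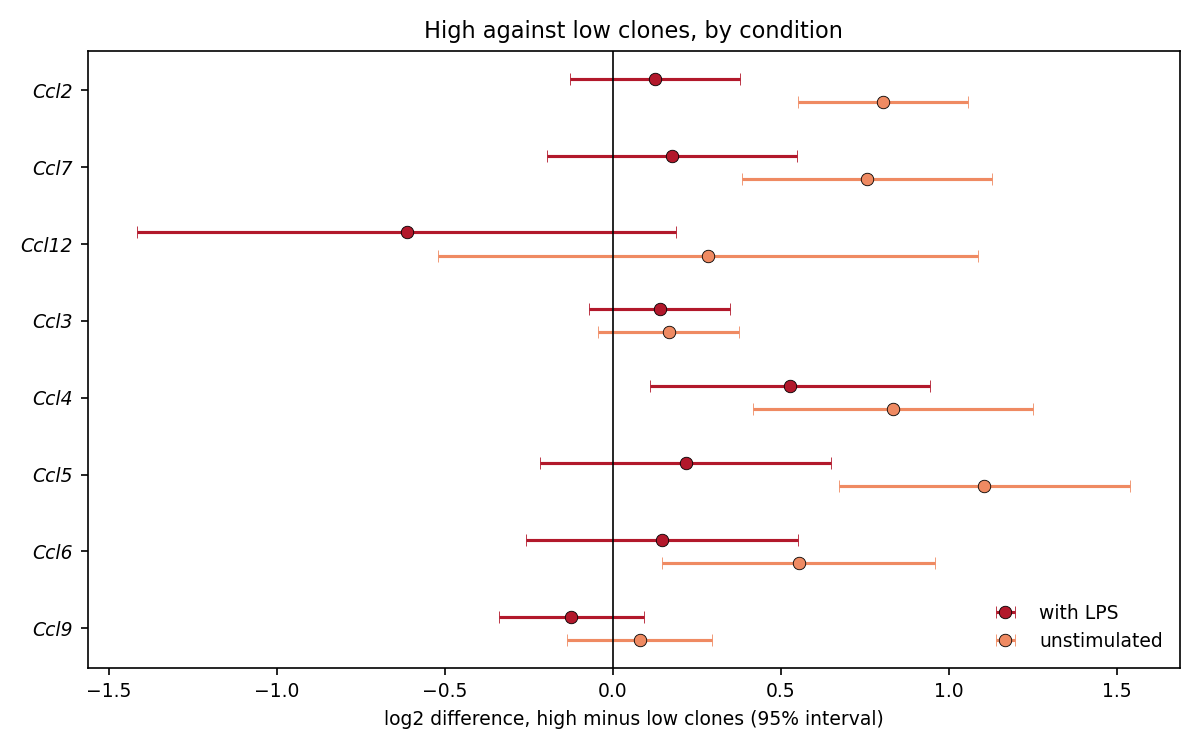
Difference in log2 level between high and low clones for each CC chemokine, with LPS (dark) and unstimulated (light); points are limma estimates from 3 clones a group and lines their 95% intervals. Unstimulated, the estimates run from 0.08 (Ccl9) to 1.11 (Ccl5), and with LPS from -0.61 (Ccl12) to 0.53 (Ccl4).

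With LPS, 0 of the 8 chemokines were called different between high and low clones by limma, where 0.982% of all genes were called higher and 0.333% lower. At an unadjusted limma p under 0.05 there was 1, Ccl4, where 2962 of all 27296 genes were at that level. Without clone 73 or clone 75, 0 of the 8 were at that unadjusted level. The clone block also called 0 of the 8, against 0.996% of all genes higher and 0.344% lower. The median difference of the 8 was 0.14 log2, beside 0 over all genes. Ccl4 averaged 10.39 ± 0.22 in high clones and 9.86 ± 0.45 in low clones, a difference of 0.53 ± 0.19 log2 (95% interval 0.11 to 0.94; limma adjusted p = 0.298), which became 0.29 log2 without clone 75. Low clone 7, at 10.29, lay within the range of the high clones. Ccl2 averaged 12.51 ± 0.04 in high clones and 12.39 ± 0.13 in low clones, with an interval of -0.13 to 0.38 log2 (adjusted p = 0.769). For Ccl5 the means were 12.81 ± 0.11 in high clones and 12.60 ± 0.33 in low clones, with an interval of -0.22 to 0.65 log2 (adjusted p = 0.77). Ccl7 averaged 12.47 ± 0.08 in high clones and 12.30 ± 0.37 in low clones, with an interval of -0.19 to 0.55 log2 (adjusted p = 0.786).

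Ccl12 and Ccl9 had lower means in the high clones after LPS. Ccl12 averaged 5.90 ± 0.38 in high clones and 6.51 ± 0.69 in low clones, a difference of -0.61 log2 (95% interval -1.42 to 0.19; limma adjusted p = 0.616). The highest value, 7.31, was that of low clone 29, without which the difference was -0.22 log2, and it was -0.40 log2 without clone 83. Ccl9 averaged 12.21 ± 0.11 in high clones and 12.34 ± 0.02 in low clones, a difference of -0.12 log2 (adjusted p = 0.733). Ccl3 averaged 13.08 ± 0.02 in high clones and 12.94 ± 0.15 in low clones, and Ccl6 5.89 ± 0.19 in high clones and 5.74 ± 0.30 in low clones (adjusted p = 0.674 and 0.846). Groups overlapped for all 8 chemokines, where 7.55% of all genes were higher and 7.7% lower in high clones without overlap.

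The LPS change was then compared between phenotypes. It was smaller in the high clones for all 8 chemokines by estimate, with a median difference of -0.49 log2, beside 0 over all genes, but limma called 0 of them. At an unadjusted limma p under 0.05 there were 3, Ccl2, Ccl5 and Ccl7, where 1290 of all 27296 genes were at that level. The clone block called 0, with 5 at that unadjusted level, where 2015 of all genes were. Across all genes 0 were called higher (0%) and 3 lower (0.011%), and with the clone block 0.00366% higher and 0.0513% lower. This difference is computed from the same unstimulated arrays as the comparison at rest, so the 2 comparisons are not independent.

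Within single clones, Ccl2 changed by 0.32, 0.48 and 0.46 log2 in the high clones and by 1.03, 1.17 and 1.09 log2 in the low clones. The ranges were far apart, and the difference of -0.68 ± 0.17 log2 (95% interval -1.03 to -0.32) had an unadjusted limma p of 0.0013 and an adjusted p of 0.806, or 0.278 with the clone block. Ccl5 changed by 1.32, 1.19 and 1.01 log2 in the high clones and by 1.87, 2.62 and 1.70 log2 in the low clones. Its difference was -0.89 ± 0.28 log2 (95% interval -1.50 to -0.28; limma adjusted p = 0.983). Ccl7 changed by 0.32, 0.66 and 0.55 log2 in the high clones and by 1.23, 1.15 and 0.89 log2 in the low clones, a difference of -0.58 ± 0.24 log2 (adjusted p = 0.983). Ccl9, with 0.16, 0.25 and 0.11 log2 in the high clones and 0.32, 0.40 and 0.41 log2 in the low clones, was also without overlap. These 4 of 8 chemokines had smaller changes in every high clone than in any low clone, a pattern held by 6.69% of all genes. Ccl4 overlapped, with 0.48, 0.67 and 0.32 log2 in the high clones and 1.02, 1.03 and 0.34 log2 in the low clones.

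**Figure D3:**
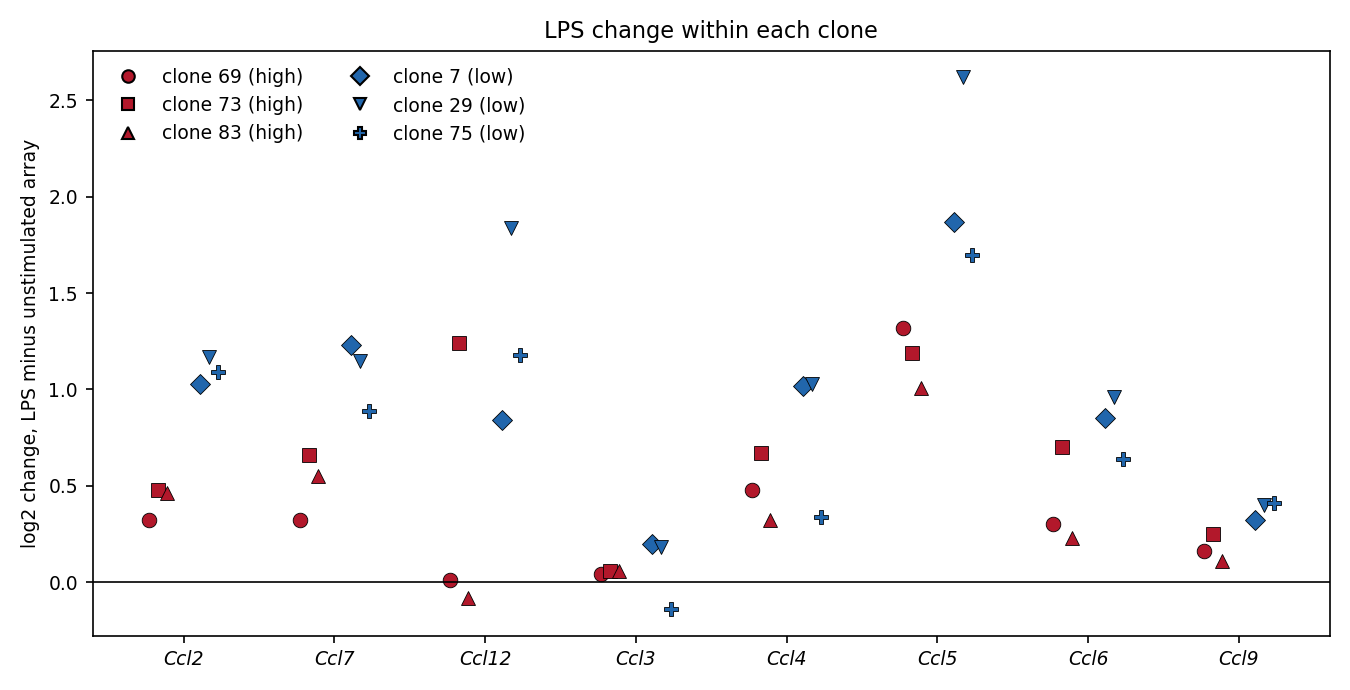
Log2 change with LPS within each clone (LPS array minus unstimulated array) for the CC chemokines, with high clones to the left of low clones. For Ccl2, Ccl5, Ccl7 and Ccl9 every high clone lies below every low clone, and Ccl12 has high clones at -0.08 and 0.01 but 1 high clone at 1.24.

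Receptors of these chemokines were at control level. Ccr1, Ccr1l1, Ccr2 and Ccr3 exceeded the 95th percentile of intron features on 0 of 12 arrays. With LPS over all clones, 5.72% of all genes were called higher and 6.72% lower. Ccr3, a receptor of Ccl5 and Ccl7, was the only one of these 4 called there (0.69 ± 0.17 log2, limma adjusted p = 0.0186). It had 4.66, 4.36 and 4.11 with LPS in the high clones, against 4.26, 3.98 and 4.18 unstimulated. Low clones had 5.87, 5.58 and 4.64 with LPS, against 4.16, 4.28 and 4.24 unstimulated, so the groups overlapped in the high clones and not in the low clones. The difference of these responses had an adjusted p of 0.983.

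Of 4 atypical receptors, 1 rose with LPS over all clones, where 5.72% of all genes were called higher. This was Ccrl2, which binds chemerin and does not signal through G proteins. It had 10.11, 9.56 and 9.84 with LPS in the high clones, against 6.97, 6.95 and 7.04 unstimulated. The low clones had 10.33, 9.71 and 9.68 with LPS, against 6.37, 5.89 and 5.17 unstimulated. All LPS arrays lay above all unstimulated arrays, and Ccrl2 rose (limma adjusted p = 9.35e-08). The 6 unstimulated arrays were below the 95th percentile of intron features (7.1 to 7.36), near control level, although Ccrl2 exceeded their median on 12 of 12 arrays. The fitted change of 3.47 ± 0.18 log2 therefore has no base above that percentile. For the same reason the call of Ccrl2 between high and low clones at rest (adjusted p = 0.0484) compares levels that are both under that percentile. With LPS the difference was -0.07 log2 (adjusted p = 0.96).

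Among 12 measured CC ligands outside the 8, LPS raised 2 over all clones and lowered 1, with a median change of 0 log2. Of all genes, 5.72% were called higher and 6.72% lower. Ccl24, an attractant of eosinophils, had 7.07, 6.73 and 6.67 with LPS in the high clones, against 9.87, 9.74 and 8.61 unstimulated. The low clones had 7.66, 7.76 and 7.65 with LPS, against 10.68, 10.31 and 10.78 unstimulated. It fell in every clone, by 2.74 log2 over all clones (SE 0.18; limma adjusted p = 8.36e-07), although 3 arrays, those of the high clones with LPS, were under the 95th percentile of intron features. It was not near control level without LPS, where it was lower in high than in low clones (-1.18 ± 0.26 log2, adjusted p = 0.0498), opposite to Ccl2 and Ccl5. Ccl22 and Ccl17, ligands of Ccr4, rose by 1.02 ± 0.14 and 0.50 ± 0.10 log2 (limma adjusted p = 0.000237 and 0.0058) at levels below the 95th percentile of intron features on all arrays.

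Of 17 measured transcription factors and NF-kB regulators known to act on CC chemokine promoters, 11 rose with LPS over all clones and 0 fell, where 5.72% of all genes were called higher, with a median change of 0.81 log2. Nfkb1, an NF-kB subunit precursor, rose 2.76-fold (limma adjusted p = 6.84e-08), and Irf7, an interferon regulatory factor, 4.36-fold (adjusted p = 0.000191). In the high clones 10 rose, against 1.82% of all genes, and in the low clones 12, against 3.59%. At rest 1 of the 17 differed between phenotypes, where 0.92% of all genes were called higher in high clones and 0.216% lower. This was Nfkbia, the NF-kB inhibitor and target, with 9.31, 9.80 and 9.66 in high clones, against 8.77, 8.65 and 8.91 in low clones. Its groups did not overlap, and the difference was 0.81 ± 0.15 log2 (limma adjusted p = 0.0238). With LPS the Nfkbia difference was 0.17 log2 (adjusted p = 0.761). Of 7 regulators of chemokine mRNA stability, 1 rose and 1 fell over all clones, where 5.72% of all genes were called higher and 6.72% lower. Zc3h12a, an RNase that degrades inflammatory mRNAs, rose (adjusted p = 5.98e-08), with its 6 unstimulated arrays below the 95th percentile of intron features. Zfp36l2, which binds AU-rich elements, fell.

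Genes within 500 kb of a chemokine were compared on the same arrays. Around Ccl2, Ccl7 and Ccl12, 0 of 8 neighbours were called with LPS over all clones by limma, with a median change of 0.02 log2. Of these neighbours 2 had an unadjusted limma p under 0.05, against 6511 of all 27296 genes. These 8 include the chemokine genes Ccl11 (-0.03 log2), Ccl8 (0.34 log2, limma adjusted p = 0.102) and Ccl1 (0.04 log2), as well as Gm17268, whose annotated span covers Ccl2 (0.00 log2). With the clone block 1, Gm11419, was called. Around Ccl5, Ccl9, Ccl6, Ccl3 and Ccl4, 13 of 29 neighbours rose and 0 fell, with a median change of 0.25 log2, where 5.72% of all genes were called higher. They include Slfn2 and Slfn4 of the Schlafen family (1.36 and 1.60 log2), Wfdc17 (1.27 log2) and Taf15 (0.35 log2). These genes, and Slfn3, AI662270 and Heatr6, lay above the 95th percentile of intron features (7.1 to 7.36) on every array. The rest of the 13, Slfn10-ps, Slfn1, 1700020L24Rik, Wfdc18, Wfdc21 and Heatr9, lay below it on every array. Their changes are therefore not measured folds.

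Heatr9, the neighbour of Ccl5, was called as well. It had 6.42, 6.37 and 6.13 with LPS in the high clones, against 4.22, 4.27 and 4.39 unstimulated. Low clones had 6.14, 5.85 and 5.52 with LPS, against 3.77, 3.45 and 3.71 unstimulated. All LPS arrays lay above all unstimulated arrays (limma adjusted p = 7.21e-08). Its level was below the 95th percentile of intron features (7.1 to 7.36) on every array and, unstimulated, below their median (4.5 to 4.82), so the fitted change of 2.103 ± 0.107 log2 is not a measured fold. At rest 0 of the 29 neighbours were called between phenotypes. An unadjusted limma p under 0.05 was held by 6 of them, against 2864 of all 27296 genes. With LPS 1 was called, Slfn1 (-0.80 log2, limma adjusted p = 0.0107), where 0.333% of all genes were called lower. Slfn1 had 4.49 to 5.64 over all arrays, below the 95th percentile of intron features, so this difference is not a measured fold either.

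**Figure D4:**
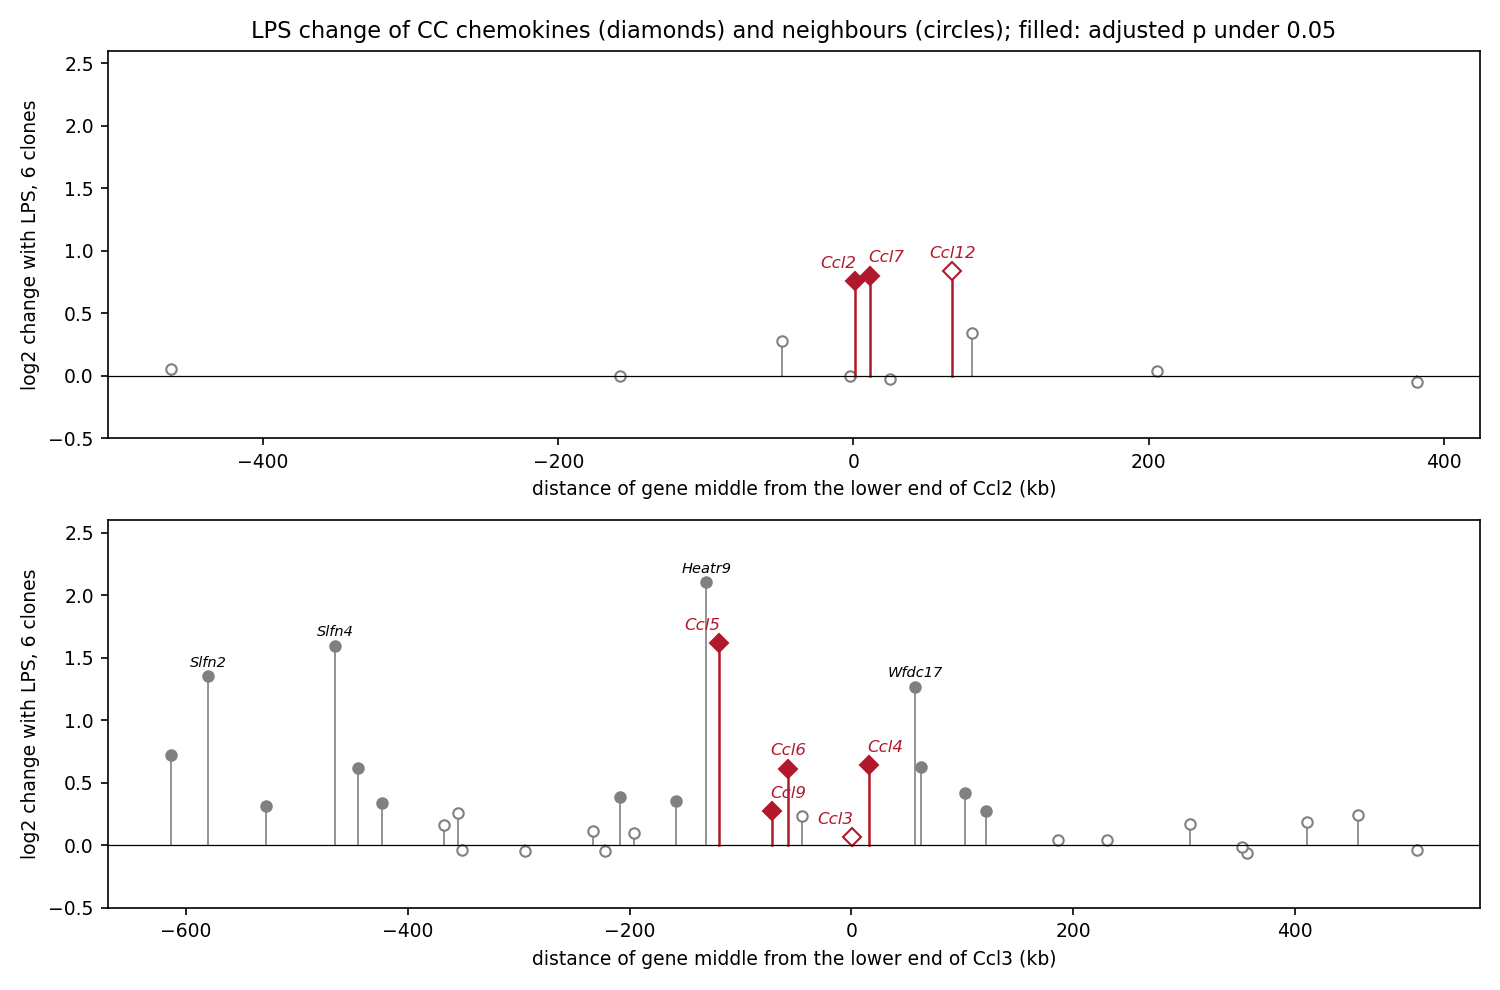
Log2 change with LPS over 6 clones for the CC chemokines (diamonds) and their neighbours within 500 kb (circles) against distance in kb along chromosome 11; filled symbols passed an adjusted p of 0.05 in limma. Filled circles number 13 of 29 around Ccl3 and 0 of 8 around Ccl2. Among the 13, Slfn10-ps, Slfn1, 1700020L24Rik, Wfdc18, Wfdc21 and Heatr9 were at the level of control features on every array.

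Profiles over the 12 arrays were compared by the root mean square difference of centred log2 levels, which has no test here. Among the 8, the closest pair was Ccl2 and Ccl7, at 0.14 log2, followed by Ccl3 and Ccl9 at 0.176, genes with small SDs of 0.11 and 0.17 log2 over all arrays, and by Ccl4 and Ccl7 at 0.21. For the 5 chemokines with an SD of at least 0.5 log2, genes among the nearest of all others are given. Maff, which encodes a small Maf transcription factor, was nearest to Ccl2 (0.146) and to Ccl7 (0.182), followed by Psme1 (0.161) and Chac1 (0.163) for Ccl2. Asns lay at 0.207 from Ccl7. Slc31a2 was nearest to Ccl5 (0.22), at a distance smaller than those of Gm13822 (0.28) and Rtn2 (0.283). Gbgt1 (0.198), Polr3d (0.202) and Nabp1 (0.203) were nearest to Ccl4. The distances for Ccl12 were larger, 0.368 for Pkd2l1 and Gm20269 and 0.394 for Mir1945.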

How the data were processed

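RNA of 12 samples was measured on 1-colour arrays. Per the file headers, the authors obtained the log2 values by RMA (background correction, quantile normalization, median polish) in Affymetrix Expression Console; no version was found in the sources used here. The workbook (41345 features, NetAffx build 34, mm10) gives, as deposited by the authors, a fold change of untransformed means (a score that is minus the inverse where the ratio is under 1), its p-value and q-value of LPS against unstimulated arrays, per the file headers. These were copied only where named, and 0 columns of values per sample went unused. Of 33793 main features, 29294 carried a symbol; 25154 matched RefSeq, and 1885 symbols were updated. For 1370 genes with several features the highest mean stood for the gene, which left 27296.

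The deposited log2 values were tested with limma 3.58.1 (lmFit, eBayes) in R 4.3.3, in 1 fit of 4 groups over 12 arrays without a clone term, and the method was tested on simulated data. The clone block fitted a term for each clone in the LPS comparisons and in the difference of responses. For high against low clones it used duplicateCorrelation (statmod 1.5.0) instead. Each clone gave 1 array with and 1 without LPS, so its number pairs arrays: their deviations from the group means correlated at 0.1 to 0.415, and the consensus correlation was 0.21. The arrays' number limits the precision. Alternatives were the clone block, only the arrays compared, leaving out a clone, a mean over features, leaving out dim genes, a trended robust prior, median centring and the header's t-test. The members and gene lists were chosen with earlier results of these data known. All members were named; listed genes, neighbours within 500 kb and the 3 genes most like each variable member could be named. Some listed or similar genes are not reported here. Promoters come from RefSeq (GRCm38.p6).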

Additional observations from a re-analysis of the deposited data

How the results depend on the processing

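Of 556 values of single chemokines recomputed under the alternatives, 506 kept their direction and their side of the threshold, 28 lost the call, 17 gained it and 5 turned direction. Those that turned were small: Ccl12 with LPS in high clones without clone 73 (-0.04 log2; range without a clone -0.04 to 0.62), Ccl12 between phenotypes at rest without clone 69 (-0.07; range to 0.66), Ccl7 between phenotypes with LPS without clone 75 (-0.03; range to 0.33), and the difference of the Ccl3 responses without clone 7 (0.03) or clone 29 (0.02; range from -0.14). The cause was not tested. Over all clones, 5 to 7 chemokines rose when a clone was left out and 7 with the replicate block on the clone. The header's t-test called 4, losing Ccl4 (adjusted p = 0.164) and Ccl6 (0.0789).

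In the high clones the chemokines called were 3 with the replicate block and 0 to 2 without a clone. In the low clones they were 3 to 7 without a clone. Without dim genes 2 of the 6 chemokines left were called in the high clones, against 706 of 8142 genes higher. The trended prior called 2 of the 8 there, against 561 of 27296 genes higher. At rest the chemokines called were 0 with only the arrays compared and 0 to 3 without a clone. Without dim genes they were 4 of 6, against 326 of 8142 genes higher. With the trended prior they were 4 of 8, against 286 of 27296 genes higher. With LPS, and for the difference of responses, the chemokines called were 0 under every alternative. Among all genes, LPS in high clones called 497 higher and 562 lower; these counts were 831 and 989 with the block, 293 and 287 with only the arrays compared, and 206 to 504 and 180 to 557 without a clone. In low clones 981 higher and 1128 lower became 488 to 970 and 453 to 1095 without a clone. At rest 251 higher and 59 lower became 48 and 5 with only the arrays compared, and 37 to 149 and 1 to 42 without a clone, while 105 were lower without dim genes. With LPS 268 higher and 91 lower became 89 and 38 with only the arrays compared, and 77 to 127 and 31 to 65 without a clone, while 149 were lower without dim genes. The difference of responses, 0 higher and 3 lower, gave 1 and 14 with the block, 0 lower without dim genes and 0 to 5 lower without a clone. Fewer samples or genes enter the fits without a clone, with only the arrays compared and without dim genes. Ccl6 and Ccl12, near the level of intron controls, were left out as dim.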
